A study of Mus musculus with 4 samples.

Results

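The SIBLING genes (small integrin-binding ligand, N-linked glycoproteins) encode secreted acidic phosphoproteins of bone and dentin, and the 5 members, Dspp, Dmp1, Ibsp, Mepe and Spp1, lie side by side on mouse chromosome 5. Runx2 occupancy of this cluster was taken from the peak lists of days 0, 9 and 28. Every peak was used that overlapped by at least 1 bp the body of a member widened by 50 kb on each side. The 5 windows join into a single stretch of 370.3 kb, chr5:104549731-104920069 (mm9). It held 63 of the 126383 peaks of the 3 lists. Peaks that shared at least 1 bp were merged, which gave 32 of the 67703 regions of the whole series.

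The cells were MC3T3-E1 (subclone 4), a clonal preosteoblast line from the calvaria of a C57BL/6 mouse for which the labels name no transgene or deletion in any group. They were grown without ascorbic acid up to day 0 (preosteoblasts, proliferation), and ascorbic acid and beta-glycerophosphate then led them to day 9 (matrix-depositing osteoblasts) and day 28 (mineralizing osteoblasts). Chromatin was precipitated with the Runx2 antibody M70, and input DNA came from day 9 cells alone. The 2 libraries of each time point were pooled before peaks were called, so each time point is a single list, a difference between time points has no replicate behind it, and none was tested. The lists hold positions and scores but no read counts, so the reads behind a peak are unknown. For the pooled libraries only raw reads before mapping are known, which were most numerous at day 0, the time point with the shortest list. The lists hold no expression, so the cell type could not be checked against its markers.

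Runx2 is a Runt-domain transcription factor that osteoblasts need in order to form, and it binds DNA at the core motif TGTGGT. The SIBLING proteins arose by duplication of neighbouring genes and carry an RGD sequence that cell-surface integrins bind. In bone they are laid down in the collagen matrix, where they bind calcium and act on the growth of mineral. Spp1 (osteopontin) is made by many cell types and restrains mineral growth. Ibsp (bone sialoprotein) is made by osteoblasts and nucleates hydroxyapatite. Dmp1 (dentin matrix protein) and Mepe (matrix extracellular phosphoglycoprotein) are products mainly of osteocytes, and both bear on phosphate handling. Dspp (dentin sialophosphoprotein) is the main product of odontoblasts and is cut into dentin sialoprotein and phosphophoryn.

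All 5 genes read in the same direction along the plus strand. In order they are Dspp (ENSMUSG00000053268, chr5:104599731-104609146), Dmp1 (ENSMUSG00000029307, chr5:104631632-104643121), Ibsp (ENSMUSG00000029306, chr5:104728190-104740488), Mepe (ENSMUSG00000053863, chr5:104754348-104767630) and Spp1 (ENSMUSG00000029304, chr5:104864137-104870069). The gap between Dspp and Dmp1 is 22.5 kb and that between Ibsp and Mepe is 13.9 kb. The other two gaps are far wider, at 85.1 kb between Dmp1 and Ibsp and 96.5 kb between Mepe and Spp1. The only other protein-coding genes of the stretch are Gm10047 and the first part of Pkd2 (polycystin 2, a cation channel), both after Spp1.

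The sequences that follow are NCBIM37 (mm9), plus strand. Capitals mark the core motif, which reads ACCACA where it lies on the other strand. The first 3 are the 250 bases before the start sites of Spp1 (chr5:104863887-104864136), Ibsp (chr5:104727940-104728189) and Mepe (chr5:104754098-104754347), shown because peaks covered the first of these at every time point, the second at days 9 and 28, and the third at none.
Spp1 promoter: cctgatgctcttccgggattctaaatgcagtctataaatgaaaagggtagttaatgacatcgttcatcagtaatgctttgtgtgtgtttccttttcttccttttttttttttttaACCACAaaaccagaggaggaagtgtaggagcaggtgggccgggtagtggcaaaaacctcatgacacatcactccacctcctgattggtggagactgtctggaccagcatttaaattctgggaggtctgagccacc
Ibsp promoter: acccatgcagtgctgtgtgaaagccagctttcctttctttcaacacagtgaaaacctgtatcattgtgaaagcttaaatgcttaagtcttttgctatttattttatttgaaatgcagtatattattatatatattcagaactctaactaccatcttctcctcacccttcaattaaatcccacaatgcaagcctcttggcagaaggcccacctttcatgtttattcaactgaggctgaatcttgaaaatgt
Mepe promoter: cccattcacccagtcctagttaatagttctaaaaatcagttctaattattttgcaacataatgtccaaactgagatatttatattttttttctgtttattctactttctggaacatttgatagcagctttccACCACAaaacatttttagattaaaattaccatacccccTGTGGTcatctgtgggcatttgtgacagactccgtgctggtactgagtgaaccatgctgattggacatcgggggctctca
Within 250 bases before the start site, 12.5% of 22359 protein-coding genes hold the core motif. The Spp1 promoter held 1 copy and the Mepe promoter 2, while the Ibsp promoter held none.

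The next set shows 100 bases at the centres of some peaks, picked for a high rank or for a motif near the centre. They are the Dmp1 promoter peak (chr5:104630650-104630749), the peak 37.4 kb after the Dmp1 start site (chr5:104669015-104669114), the highest-ranked day 0 peak, in the gap between Mepe and Spp1 (chr5:104803697-104803796), and the peak -27.1 kb from the Spp1 start site (chr5:104836967-104837066).
Dmp1 promoter peak: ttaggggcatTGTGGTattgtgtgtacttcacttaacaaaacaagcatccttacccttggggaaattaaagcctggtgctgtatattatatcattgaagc
Dmp1 far peak: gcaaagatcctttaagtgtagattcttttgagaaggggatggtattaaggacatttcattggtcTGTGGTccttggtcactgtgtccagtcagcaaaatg
Mepe to Spp1 gap peak: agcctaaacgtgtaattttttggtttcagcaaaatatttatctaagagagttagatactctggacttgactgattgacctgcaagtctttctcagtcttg
Spp1 far peak: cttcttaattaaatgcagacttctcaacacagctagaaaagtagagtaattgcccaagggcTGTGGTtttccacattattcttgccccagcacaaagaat
The motif lay 37, 17 and 14 bp from the centre of the Dmp1 promoter, Dmp1 far and Spp1 far peaks, and the Mepe to Spp1 gap peak held no copy anywhere. These peaks were picked in part for the motif, which 8 of all 32 regions held within 50 bp of the centre.

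The last set shows the peaks inside Mepe and Dspp. For the first Mepe peak (chr5:104757619-104757718) and the Dspp peak (chr5:104607001-104607100) these are 100 bases at the centre. For the second Mepe peak they are 120 bases with the densest copies of the motif (chr5:104759860-104759979).
Mepe intron peak: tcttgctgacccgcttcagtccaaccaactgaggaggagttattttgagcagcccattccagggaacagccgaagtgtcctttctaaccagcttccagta
Mepe intron repeat: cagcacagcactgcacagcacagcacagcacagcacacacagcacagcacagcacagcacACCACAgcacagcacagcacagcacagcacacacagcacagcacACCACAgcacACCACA
Dspp exon peak: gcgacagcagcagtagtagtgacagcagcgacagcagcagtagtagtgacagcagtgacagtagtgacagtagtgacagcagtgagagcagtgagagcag
The Mepe intron repeat is built of agcac units in tandem and the Dspp exon peak of agc units with near variants, whereas no such repeat is seen in the Mepe intron peak.

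Across the cluster 12 peaks were called at day 0, 27 at day 9 and 24 at day 28. The lists differ in length (25457, 60596 and 40330 peaks), and with only the 25457 best-scoring peaks of each the counts became 12, 11 and 12. The peaks left out in this way are by construction the lower-scoring ones of the longer lists. Similar counts do not mean the same sites. In these shorter lists 8 of 20 regions (40%) had no day 0 peak, against 34.0% of all regions. The highest-ranked day 9 peak, at a percentile of 95.2, also lay in a region with no day 0 peak. That region lies on the Mepe intron repeat shown above. Of the sequences of read length in it, 42.4% occurred once in the mouse genome. The score of that peak, 3100, is shared by 2699 day 9 peaks, and the part of repeated sequence in it was not tested. Over 100 kb of the stretch there were 3.24, 7.29 and 6.48 peaks at days 0, 9 and 28, against 0.959, 2.28 and 1.52 over the whole genome. The stretch was thus 3.38, 3.19 and 4.27 times as dense as the genome in the same order. Against the median window of a protein-coding gene (1.63, 3.52 and 2.42 peaks per 100 kb) it was 1.99, 2.07 and 2.68 times as dense.

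Scores depend on depth, so each peak was ranked within its own list by its percentile, the percent of that list's peaks with a lower MACS score. The peaks of the cluster were of middling rank. The median percentile was 53.3 in the day 0 list, with a range of 8.90 to 86.5. It was 45.6 (4.89 to 95.2) in the day 9 list and 33.9 (4.07 to 88.6) in the day 28 list. At or above the median of their list lay 6 of 12, 11 of 27 and 8 of 24 peaks. Peaks were narrower than those of the full lists, with a median width of 795 bp against 917 bp at day 0, 460 against 554 bp at day 9 and 533 against 763 bp at day 28.

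**Figure D1:**
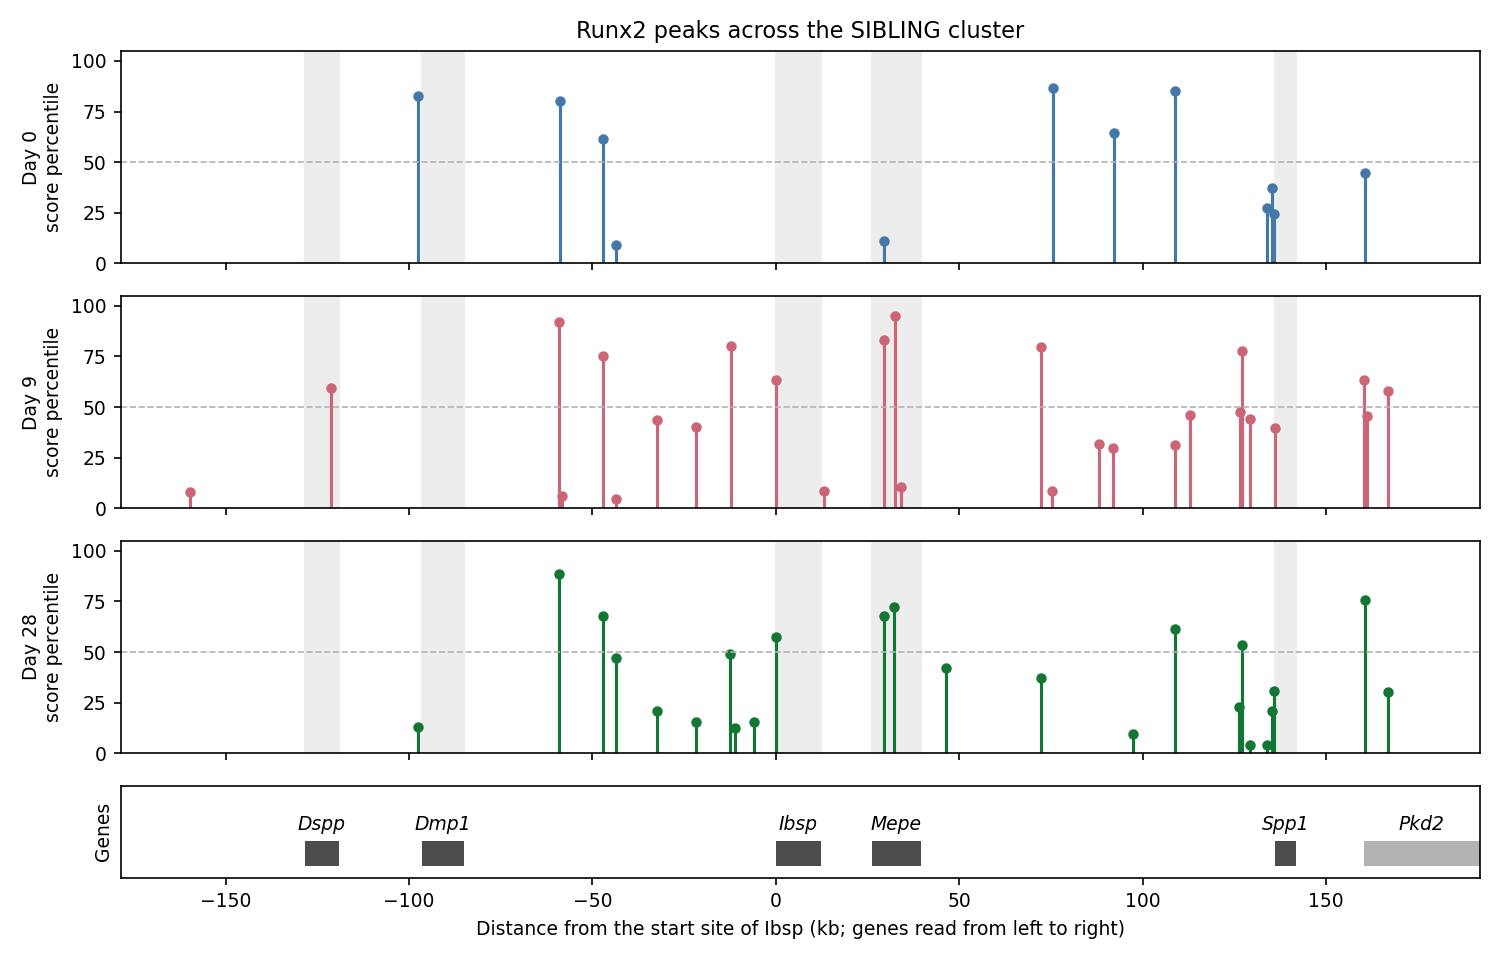
Runx2 peaks of days 0, 9 and 28 (one panel each) across the SIBLING stretch: the x axis is the distance from the Ibsp start site in kb, the height of each stem is the percentile of the peak's score within its own list (percent), and grey bands mark the gene bodies. The 85.1 kb between Dmp1 and Ibsp and the 96.5 kb between Mepe and Spp1 hold 8 and 14 regions, and no peak centre falls inside Dmp1 or Spp1.

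Regions lay in the genes and between them about in proportion to length. The gene bodies make up 52.4 kb, or 14.2%, of the stretch, and 5 of 32 regions (15.6%) had their centre in one. Intron 2 of Mepe made that gene the densest part, with 22.6 regions per 100 kb. That value rests on 3 regions in 13.3 kb, including the tandem repeat shown above. The gap between Mepe and Spp1 had 14.5 and the gap between Dmp1 and Ibsp 9.40. Of the 32 regions, 14 lay between Mepe and Spp1 and 8 between Dmp1 and Ibsp, while the short gaps between Dspp and Dmp1 and between Ibsp and Mepe held 1 each. Of the 5 regions inside a member, 3 were in intron 2 of Mepe, 1 in exon 5 of Dspp and 1 in exon 1 of Ibsp. No centre lay inside Dmp1 or Spp1. Only 4 regions had their centre within 1 kb of a member's start site, and 19 were more than 10 kb from one. The start site of Spp1 was the nearest of any protein-coding gene for 11 regions, that of Ibsp for 8, Mepe for 7, Dmp1 for 2 and Dspp for 1. The remaining 3 were nearest to Pkd2 (2) or Sparcl1 (1).

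By time point, 7 regions (21.9%) had a peak at all 3 time points, against 27.4% of all regions. A further 10 (31.3%) had peaks at days 9 and 28 but not day 0 (all regions 21.1%), 6 (18.8%) at day 9 alone (34.5%) and 4 (12.5%) at day 28 alone (7.59%). Peaks at days 0 and 28 without day 9 were found in 3 regions (9.38%, exact Clopper-Pearson 95% interval 1.98 to 25.02, for counting error only), against 2.06% of all regions, and at days 0 and 9 without day 28 in 2 regions (6.25%, against 1.69%). No region had a peak at day 0 alone, where 5.6% of all regions did, and 0 of 32 allows a share of up to 10.9%. The 20 regions that lacked a day 0 peak made up 62.5% (43.7 to 78.9), next to 63.2% of all regions. With lists of equal length that share was 40% (8 of 20) in the cluster and 34.0% over all regions. In neither setting did the cluster stand apart from the rest of the genome in this respect.

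Spp1, which encodes osteopontin, was the member with a peak over its start site in all 3 lists, although that peak scored low. The window of Spp1 held 6, 11 and 10 peaks at days 0, 9 and 28, and 83.9%, 78.3% and 87.8% of protein-coding genes had fewer. Such counts, here and for the other members, are not adjusted for window width. By peaks per 100 kb, 91.1%, 86.0% and 93.7% of genes were below Spp1. In the lists of equal length the window held 6, 3 and 3. The peak over the start site, merged over the days as chr5:104863812-104864357, had its centre at -15 bp. It ranked at the 24.6 percentile on day 0, 39.7 on day 9 and 30.6 on day 28, below the median of each list. Its scores were 157.33, 200.12 and 190.34. At a p-value of 1e-20 (a score of 200) only the day 9 peak remained, and in the lists of equal length, whose lowest scores were 100, 346.09 and 224.44, only the day 0 peak. The core motif lay inside it on the minus strand at -135 bp, counted to the first base from the start site, in the promoter sequence printed above.

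Further regions upstream of Spp1 were called at days 0 and 28 and not at day 9. That at -782 bp (chr5:104863037-104863758) had percentiles of 37.4 and 20.9, and that at -2.13 kb (chr5:104861617-104862411) had 27.2 and 4.07. They are 2 of the 3 regions of the cluster with this pattern. Farther out, a group of 3 regions at -6.64, -8.97 and -9.52 kb had peaks at days 9 and 28 only. The middle of these ranked highest, at 77.6 on day 9 and 53.8 on day 28. The strongest day 0 peak of the Spp1 window was at -27.1 kb (chr5:104836368-104837666), with percentiles of 85.0, 31.1 and 61.3, and it held the motif 14 bp from its centre. A day 28 peak at -38.6 kb ranked low (9.54) although the motif was 2 bp from its centre. The outer regions at -43.8 kb (64.2 at day 0, 29.6 at day 9) and -47.9 kb (31.9 at day 9) had no peak at day 28.

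Bone sialoprotein, encoded by Ibsp, showed no peak at its start site in proliferating cells and one at both later time points. The region chr5:104727943-104728626 covered the start site, with its centre at +126 bp in the untranslated part of exon 1. Its percentile was 63.6 at day 9 (score 428.35) and 57.6 at day 28 (score 430.37). The core motif was not found in the 1000 bp before to 150 bp after the start site, a stretch in which 52.5% of protein-coding genes hold it, nor in the rest of the day 9 peak. The homeodomain motif TAATTA was present at -631 and -590 bp, outside every peak (22.3% of genes hold it in such a stretch). The ChIP amplicon that the study used for Ibsp, with primers tctggtgagaacccacagcctga and ccttctccgcctctcaacagcc, lies at chr5:104728207-104728276, from 17 to 86 bp after the start site, inside the day 9 and the day 28 peak and outside any day 0 peak.

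The Ibsp window held 3, 10 and 11 peaks, and 55.2%, 74.9% and 90.7% of genes had fewer. With lists of equal length these became 3, 5 and 7. Of its day 0 peaks, 2 lay in the gap towards Dmp1 and 1 in the intron of Mepe. Upstream, the region at -12.3 kb had percentiles of 80.0 at day 9 and 48.8 at day 28 and held the homeodomain motif near its centre. The regions at -11.1 kb (12.6) and -5.83 kb (15.6) were called at day 28 alone. The 2 regions at -21.7 and -32.5 kb had peaks of modest rank at days 9 and 28, from 15.5 to 43.5. The 2 regions at -43.5 and -47.1 kb had peaks at all 3 time points, with 8.90, 4.89 and 46.9 for the first and 61.6, 75.1 and 68.0 for the second. From -32.5 kb to the start site of Ibsp, every peak was therefore of day 9 or 28. The day 0 list is the shortest, and 63.2% of all regions had no day 0 peak. In the lists of equal length, only the regions at -12.3 kb and at the start site remained of these.

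**Figure D2:**
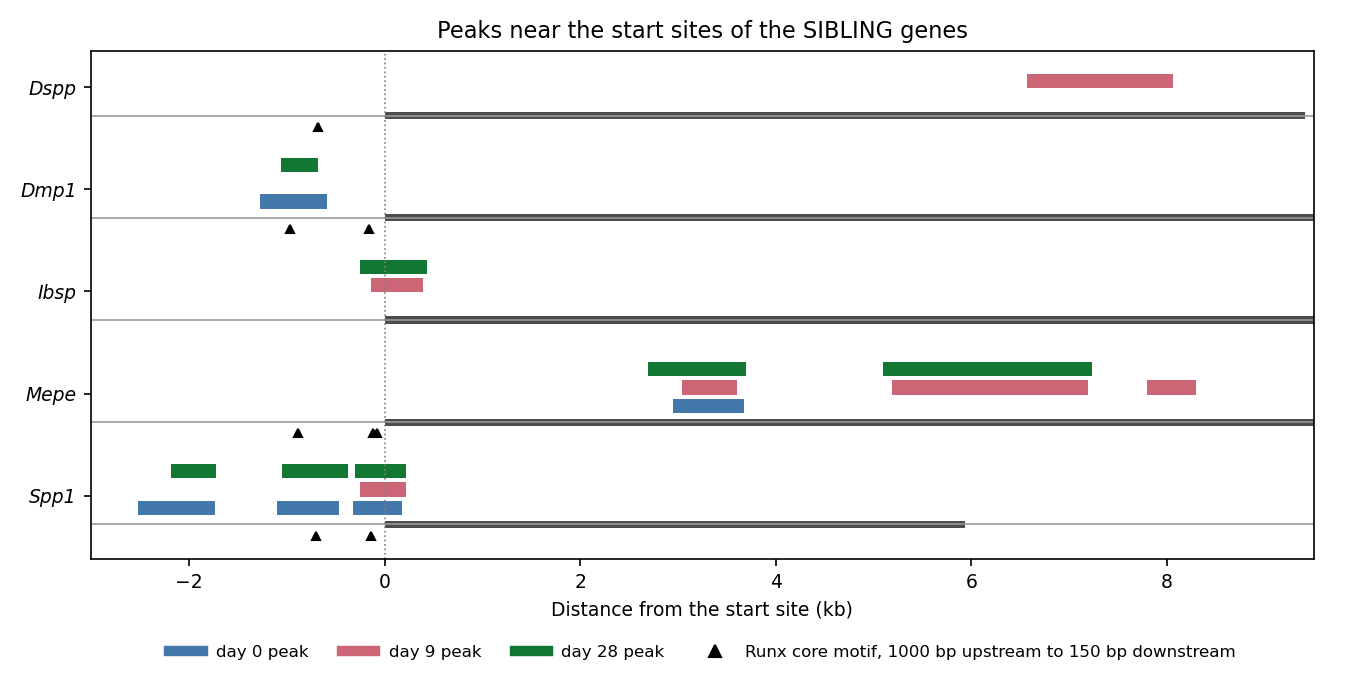
Peaks from 3 kb before to 9.5 kb after the start site of each SIBLING gene: the x axis is the distance from the start site in kb, colored bars are the extents of the day 0, 9 and 28 peaks, dark bars are gene bodies, and triangles mark core motifs from 1000 bp before to 150 bp after the start site. Spp1 has a peak over the start site at every time point, Ibsp at days 9 and 28, Dmp1 has an upstream peak at days 0 and 28, and the peaks of Mepe and Dspp lie inside the genes.

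Dmp1, the acidic matrix protein of osteocytes, had a promoter peak that was ranked highest in proliferating cells. The region chr5:104630356-104631044 had its centre at -932 bp. It stood at a percentile of 82.6 at day 0 (score 680.99), was not called at day 9 and stood at 13.3 at day 28 (score 128.45). Of the 3 regions with peaks at days 0 and 28 only, this had the highest day 0 rank. The core motif lay at -972 bp within the peak, and a second copy at -160 bp was in no peak. No peak overlapped the body of Dmp1 at any time point.

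The strongest region shared by all time points followed Dmp1 at 37.4 kb from its start site, in the gap before Ibsp (chr5:104668547-104670020). It ranked at 80.3 on day 0, 92.3 on day 9 and 88.6 on day 28, the last being the highest of the cluster at that time point. A second, minor day 9 peak in the same region ranked at 6.17. In all, the Dmp1 window held 4, 5 and 4 peaks, and 67.2%, 48.2% and 52.7% of genes had fewer. The counts were 4, 3 and 3 in the lists of equal length. Against the medians of all protein-coding genes (2, 5 and 3 peaks), the Dmp1 window had more at days 0 and 28 and the same number at day 9. Per 100 kb it had 3.59, 4.48 and 3.59 peaks, above the medians of 1.63, 3.52 and 2.42 at each time point.

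Mepe, the precursor of peptides that hold back mineralization, had no peak at its promoter, although copies of the core motif lie at -887, -118 and -80 bp. Its peaks were in intron 2. The region at +3.32 kb (chr5:104757046-104758040) ranked at 11.1 on day 0, 83.1 on day 9 and 67.8 on day 28. The region at +6.19 kb (chr5:104759450-104761584) had no day 0 peak, a score of 3100 at day 9 and a percentile of 72.3 at day 28. The score of 3100 is shared by 2699 day 9 peaks, with 211 above it, which puts the percentile at 95.2, the highest of the cluster. The region at +8.05 kb ranked at 10.8 at day 9 and was not called at the other time points.

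The region at +6.19 kb lies on the tandem repeat shown above. Of its 36-base words, the length of the reads, 42.4% occurred once in the mouse genome, and near the centre 22.6%, whereas 27 of the 32 regions had 90% or more of such words (median 100%). At the period of 5 bases, 85.3% of the central 100 bases equalled the base one period before. Copies of the core motif numbered 14 and all were on the minus strand, none within 50 bp of the centre. The Dspp region had 78.2% of words that occurred once. The part of repeated sequence in these scores was not tested.

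The window of Mepe held 2, 10 and 9 peaks (40.8%, 74.9% and 84.4% of genes had fewer), and 2, 5 and 6 in the lists of equal length. After the gene, a region at +20.1 kb was called at day 28 alone (42.3) and held the variant TGCGGT near its centre. A region at +46.2 kb had percentiles of 79.7 at day 9 and 37.1 at day 28. Next to it, at +49.4 kb (chr5:104803220-104804275), was the highest-ranked day 0 peak of the cluster, at 86.5, which ranked at 8.83 on day 9 and was not called at day 28. Of these neighbours, the first had no day 0 peak and the second no day 28 peak.

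Dspp, the dentin gene, had the fewest peaks, with 1, 2 and 1 in its window, and 26.2%, 25.5% and 21.6% of genes had fewer. Those of days 0 and 28 were the peaks of the Dmp1 promoter, which the Dspp window reaches. The peak inside Dspp (chr5:104606305-104607797) was called at day 9 alone, with a percentile of 59.5 (score 365.69). It lay in the coding part of exon 5, the last exon, whose repeated agc units encode the serine- and aspartate-rich phosphophoryn. The first region of the stretch, -31.2 kb from Dspp, was a day 9 peak of low rank (8.20) nearest to Sparcl1. No peak fell in the Dspp promoter, where a copy of the core motif lies at -683 bp.

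**Figure D3:**
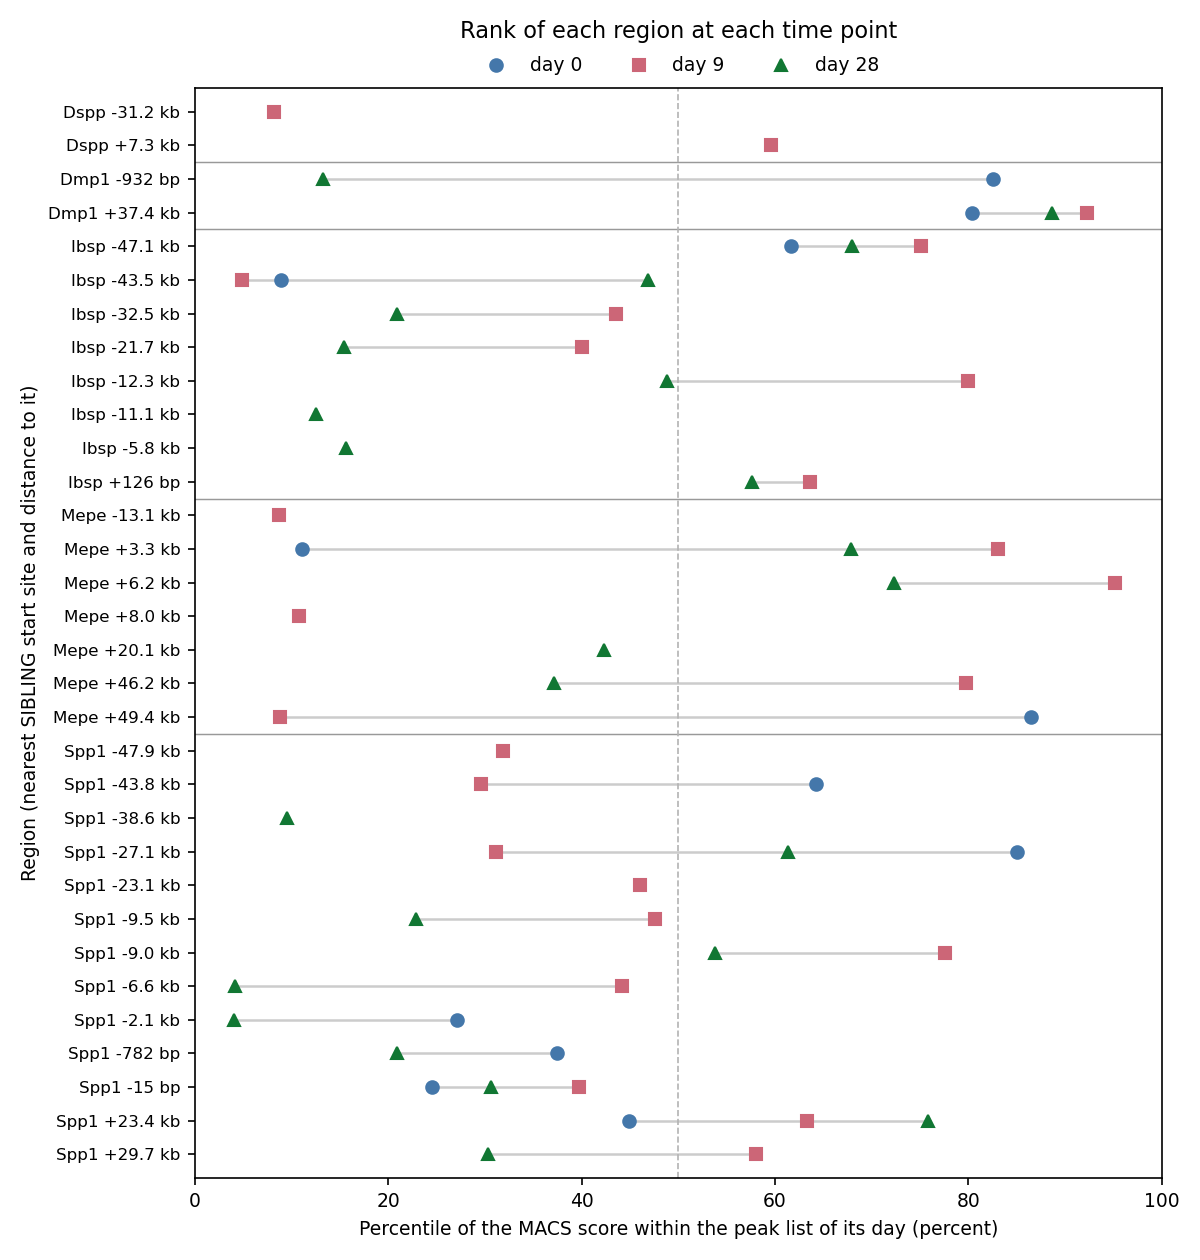
Percentile of each of the 32 regions within the day 0 (circles), day 9 (squares) and day 28 (triangles) lists: the x axis is the percentile in percent, the y axis gives the nearest SIBLING start site and the distance to it, and a missing symbol means that no peak was called. The Dmp1 promoter region stands at 82.6 on day 0 and 13.3 on day 28, and the Mepe +3.3 kb region at 11.1 on day 0 and 83.1 on day 9. The lists differ in length, so a percentile is not the same rank in each.

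Across the members, a promoter peak (1000 bp before to 150 bp after a start site) was present at day 0 in Dmp1 and Spp1, at day 9 in Ibsp and Spp1, and at day 28 in Dmp1, Ibsp and Spp1. Over all protein-coding genes the shares were 42.7%, 51.6% and 50.1%, so that 2, 2 and 3 of 5 members are near the background. In the lists of equal length the members with a promoter peak were 2, 1 and 1, as Spp1 at days 9 and 28 and Dmp1 at day 28 dropped out. The shares over all genes are for the full lists, so these 3 counts have no background beside them. A peak over the gene body was present in 2, 4 and 3 of 5 members, against 48.9%, 62.5% and 57.2% of genes. All 5 members had at least 1 peak in their window at each time point, as did 73.8%, 83.2% and 78.4% of genes. The members share peaks because their windows overlap, so they are not independent of each other.

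Whether a region stood lower at a later day depended on the measure, since the lists differ in length. By percentile, 14 of 17 regions with peaks at days 9 and 28 stood lower at day 28 (70.9% of all such regions in the genome did). By the number of peaks in the list with a higher score, 7 of 17 did (38% of all). From day 0 to day 9, 4 of 9 regions stood lower by percentile (27.1% of all) and 7 of 9 by the number of higher-scoring peaks (60.6% of all). Regions of the cluster thus had no direction that both measures shared. By either measure, the region at +49.4 kb from Mepe stood farthest below its day 0 place at day 9 (3441 higher-scoring peaks on day 0 and 55215 on day 9). The region at +3.32 kb in Mepe stood farthest above it, with 22638 and 10259.

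**Figure D4:**
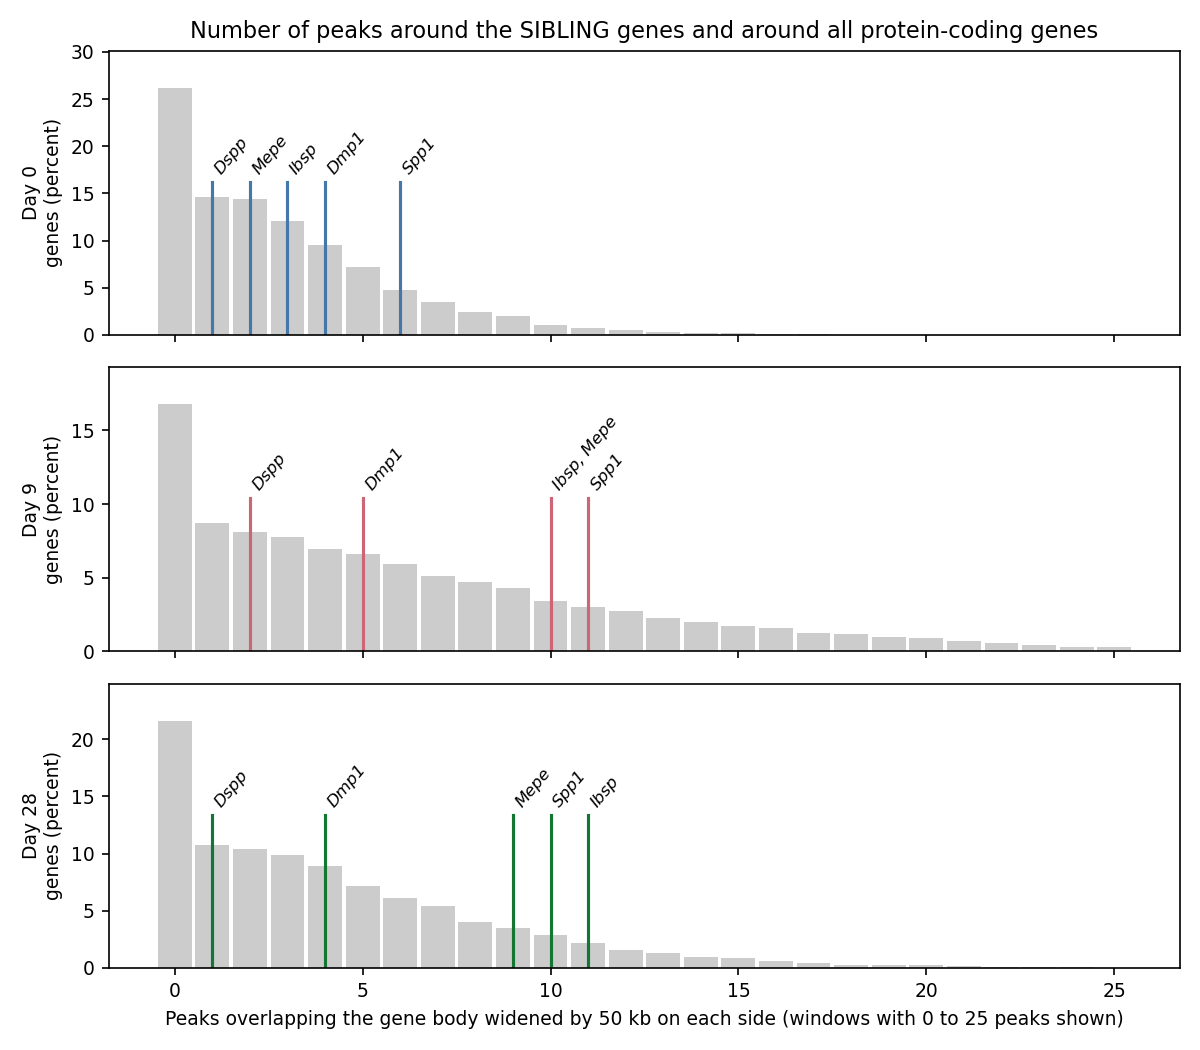
Number of peaks in the window of each SIBLING gene (colored lines) over the distribution for all 22359 protein-coding genes (grey bars, percent of genes) at days 0, 9 and 28: the x axis is the number of peaks overlapping the gene body widened by 50 kb. Dspp stays at the low end with 1, 2 and 1 peaks, and Ibsp goes from 3 at day 0 to 10 and 11.

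The core motif was as frequent under the peaks of the cluster as elsewhere. Within 50 bp of the centre of the highest-ranked peak of a region it was present in 8 of 32 regions (25%, 11.5 to 43.4), next to 24.7% of all regions. In 100 bp windows from 450 to 550 bp on either side it was present in 9.38% and 3.13% of the regions, against 7.44% and 7.21%. Among regions with a day 0 peak 4 of 12 held it (33.3%, 9.92 to 65.1), and among those without, 4 of 20 (20%, 5.73 to 43.7). The shares over all regions, 16.3% and 29.5%, lay inside these intervals. The variant TGCGGT was found in 1 region (3.13%, against 3.39%). The AP-1 motif TGACTCA was found in none, which allows a share of up to 10.9%, against 3.23%. The homeodomain motif TAATTA was found in 2 (6.25%, 0.766 to 20.8), at -12.3 kb from Ibsp and -27.1 kb from Spp1. The share over all regions, 1.01%, lay inside that interval. All motifs were searched on both strands, and none contains another.

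Counted the other way, the stretch contains 299 copies of TGTGGT, of which 9 (3.01%) lay in a day 0 peak, 31 (10.4%) in a day 9 peak and 28 (9.36%) in a day 28 peak. For the genome these shares were 1.43%, 4.30% and 2.50%. The shares are not adjusted for peak density, which in the stretch was 3.38, 3.19 and 4.27 times that of the genome. The Mepe intron repeat alone contributed 14 copies. Without it, 3.16%, 5.96% and 4.91% of 285 copies were in a peak of days 0, 9 and 28, and 7.37% in a peak of any day (4.62 to 11.0), in place of 11.7%. The genome value for any day was 5.16%, with no repeat left out.

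Genes related to the members gave other values. Further genes of the secretory calcium-binding phosphoprotein family and the related Sparc and Sparcl1, which encode enamel and matrix proteins, were examined. These 7 genes had a median of 0, 1 and 1 peaks in their windows. Ambn, Odam and Amelx, which encode enamel proteins, had none at any time point, Amtn had 0, 1 and 1, and Enam 1, 1 and 1. Sparcl1, next to the cluster, had 3, 5 and 6, and Sparc (osteonectin), the abundant glycoprotein of bone matrix, had 11, 23 and 13. Sparc was thus above every SIBLING gene at each time point, and the enamel genes below Dmp1, Ibsp, Mepe and Spp1. Against Dspp (1, 2 and 1), Ambn, Odam and Amelx were lower at each time point, Amtn at days 0 and 9 and Enam at day 9.

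The 9 genes that modify, cut or bind the SIBLING proteins had a median of 5, 10 and 7 peaks. The kinase Fam20c, which phosphorylates them, had 2, 8 and 5. Among proteases, Bmp1, which cleaves Dmp1 and Dspp, had 1, 18 and 7, Mmp2 had 6, 12 and 9, Mmp3 had 0, 1 and 0, and Phex, which cleaves the acidic peptides, had 4, 2 and 7. Among the receptors, the integrin subunit Itgb5 had 15, 22 and 19, Itgb3 had 5, 22 and 14, Itgav had 6, 8 and 4 and Cd44 had 8, 10 and 6. Longer genes have wider windows, and those of the receptors span 162421 to 219489 bp and that of Phex 356627 bp, against 105933 to 113283 bp for the members. Per 100 kb the 9 genes had medians of 3.08, 5.25 and 3.21 peaks, against 2.67, 8.83 and 7.94 for the members.

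At the edges of the stretch, the 2 regions after Spp1 belong to Pkd2. That at its start site (chr5:104887753-104889558) ranked at 44.9, 63.3 and 75.8 on days 0, 9 and 28, and that in an intron had 58.1 and 30.3 at days 9 and 28. The nearest peaks left out lay 252 bp and 522 bp beyond the end of the Spp1 window, inside Pkd2, with percentiles of 79.6 at day 0 and 55.6 at day 9. On the Dspp side the nearest peak left out was 6436 bp away, at the start of Sparcl1, with a percentile of 14.7 at day 0, and the first peak inside was 18.5 kb from the edge.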

How the data were processed

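Runx2 ChIP-Seq was done in MC3T3-E1 cells at days 0, 9 and 28. The authors base-called the single-end 36-base reads with CASAVA (version 1.6), mapped them to mm9 with Bowtie (version 0.12.8) and pooled the 2 libraries of a time point. Their peaks are those of MACS (version 1.4.1) against pooled day 9 input at a p-value of 1e-10. The deposited score is 10 times the negative log10 of that p-value and falls no lower than 100. It depends on read depth, which the lists do not give and which differed between time points (most raw reads at day 0), so percentiles were taken within each list.

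Genes, start sites and introns came from GENCODE M1 protein-coding transcripts on NCBIM37 (22359 genes), and no peak end lay beyond a chromosome. Intervals are exact Clopper-Pearson 95% intervals. No test was made. All members were named, with genes nearest to a peak and every gene of both further lists, and positions were given for regions near, in or between members or of highest rank. The members and lists were chosen with earlier results of these data known. Word counts, the set without the Mepe repeat, ranks from the top of a list and stricter thresholds for promoter peaks were added after the data were seen. Procedures were tested on simulated data. The tools were SciPy 1.17.1, NumPy 2.4.6 and Matplotlib 3.10.9 under Python 3.11.15.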

Additional observations from a re-analysis of the deposited data

How the results depend on the processing

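No paired analysis was possible because each time point has a single pooled list. The number of peaks in the cluster moved with the threshold, the width of the windows and the length of the lists. At a p-value of 1e-20 the day 28 count was 12, and at 1e-50 the counts were 4 at day 0, 7 at day 9 and 5 at day 28. With windows widened by 10 kb they were 5, 10 and 12. With 25457 top-scoring peaks in each list, days 9 and 28 had 11 and 12, and the share of regions without a day 0 peak was 40%. The motif was present in 53.1% of regions (34.7 to 70.9) when the whole peak was searched, next to 61.6% of all regions. Without the Mepe repeat, 7.37% of motif copies were in a peak. Promoter peaks were found in 1 member at day 28 at 1e-20, in 1, 0 and 0 members at days 0, 9 and 28 at 1e-50, and in 1 at day 9 and 1 at day 28 with lists of equal length, settings added after the data were seen. These are 18 of 49 values under another setting, and the other 31 kept within 1.5 times the count or inside the interval of the share. The order of days 9 and 28 against day 0 thus depended on the length of the lists. For promoter peaks, the share over all genes is given only for the full lists. The lists give no read counts, and an absent peak says only that none passed the threshold.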
